A study of Mus musculus with 16 samples.

Results

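The interferon-stimulated genes described here are 44 mouse genes that type I or type II interferon induces. They were chosen by name, and each was read through the Affymetrix probe sets annotated with its symbol alone. All 44 genes had such a probe set, and together they held 73 of the 34945 probe sets with a single symbol, which stood for 18193 genes. The series holds 16 arrays of total RNA from dorsal incisional wounds of wild-type C57BL/6 mice labelled female, with 4 mice in each of 4 groups. A wound was either unstressed or mechanically loaded (stressed), and the labels refer to the loading as a mouse model of hypertrophic scarring. Wounds of day 6 had been loaded for 48 hours, and wounds of day 14 for 10 days. The groups were therefore unstressed day 6, stressed day 6, unstressed day 14 and stressed day 14, all of the same genotype and strain. Unwounded skin was not analysed here.

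Interferons are signals that cells secrete when they sense foreign or misplaced nucleic acids. Type I interferons act through the receptor chains Ifnar1 and Ifnar2 and lead a complex that holds Stat2 and Irf9 to the interferon-stimulated response element (ISRE) of target genes, while interferon gamma acts through gamma-activated sites (GAS). The target genes encode nucleic acid sensors, antiviral effectors, GTPases, antigen-processing proteins and feedback regulators, and mouse skin is known to recruit plasmacytoid dendritic cells that make type I interferon after injury.

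The deposited values are signals on a log scale that the authors centred per probe set. The base of the log is not given in the sources used here and was taken to be 2, and natural logs would make every fold larger. A value is therefore a level relative to an unknown reference of that probe set, and levels of different genes cannot be set against each other. On the log2 reading a difference of 1 between groups is 2-fold. For the same reason no array can be said to detect or lack a gene, and the tissue label could not be checked by the absolute level of skin markers. Differences were tested with limma over all 18193 genes, and a gene is said to have risen or fallen where its Benjamini-Hochberg adjusted p was under 0.05. Arrays of replicates 3 and 4 in both day 14 groups had Xist signals of 5.98 to 6.30 and a mean signal of 3 Y-linked genes of -3.97 to -3.53, whereas the other 12 arrays had Xist signals of -0.53 to 0.81 and Y-linked means of -0.99 to 0.74, although all 16 are labelled female. Day 14 results are therefore also given without replicates 3 and 4. The arrays measure whole wound tissue, in which fewer cells of a type and less RNA per cell cannot be told apart.

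Across the groups, the interferon-stimulated genes followed a common order. The stressed day 6 group had the highest mean for 41 of the 44 genes, and the unstressed day 14 group had the lowest for 39. For 36 genes the means ran from stressed day 6 through unstressed day 6 and stressed day 14 down to unstressed day 14. Both day 14 means lay below both day 6 means for 41 genes. Between stressed and unstressed wounds of the same day, the outer neighbours in this order, few genes were called. No gene passed the test at day 6 and 6 did at day 14, which does not show that the others were equal. The middle neighbours, unstressed day 6 and stressed day 14, were not compared in a test, and for Ifit1 their means were 0.03 and -2.03.

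The mean signal over the 44 genes showed how far the arrays of a group differed. On the unstressed arrays of day 6 it was 0.34, -0.01, 0.36 and -0.18 (replicates 1 to 4), and on the stressed arrays of day 6 it was 0.57, 0.61, 0.75 and 0.23. At day 14 it was -1.33, -1.43, -1.84 and -0.98 in unstressed wounds and -1.06, -0.41, -1.22 and -1.02 in stressed wounds. All 8 arrays of day 14 were thus below all 8 arrays of day 6, while stressed and unstressed arrays overlapped at each day. Replicate 2 of the stressed day 14 group stood highest of its group, with the highest value for 34 of the 44 genes. Replicate 3 of the unstressed day 14 group had the lowest value of its group for 29 genes, and its replicate 4 the highest for 28. In the day 6 groups, replicate 4 was lowest for 28 genes in unstressed and for 34 genes in stressed wounds.

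**Figure D1:**
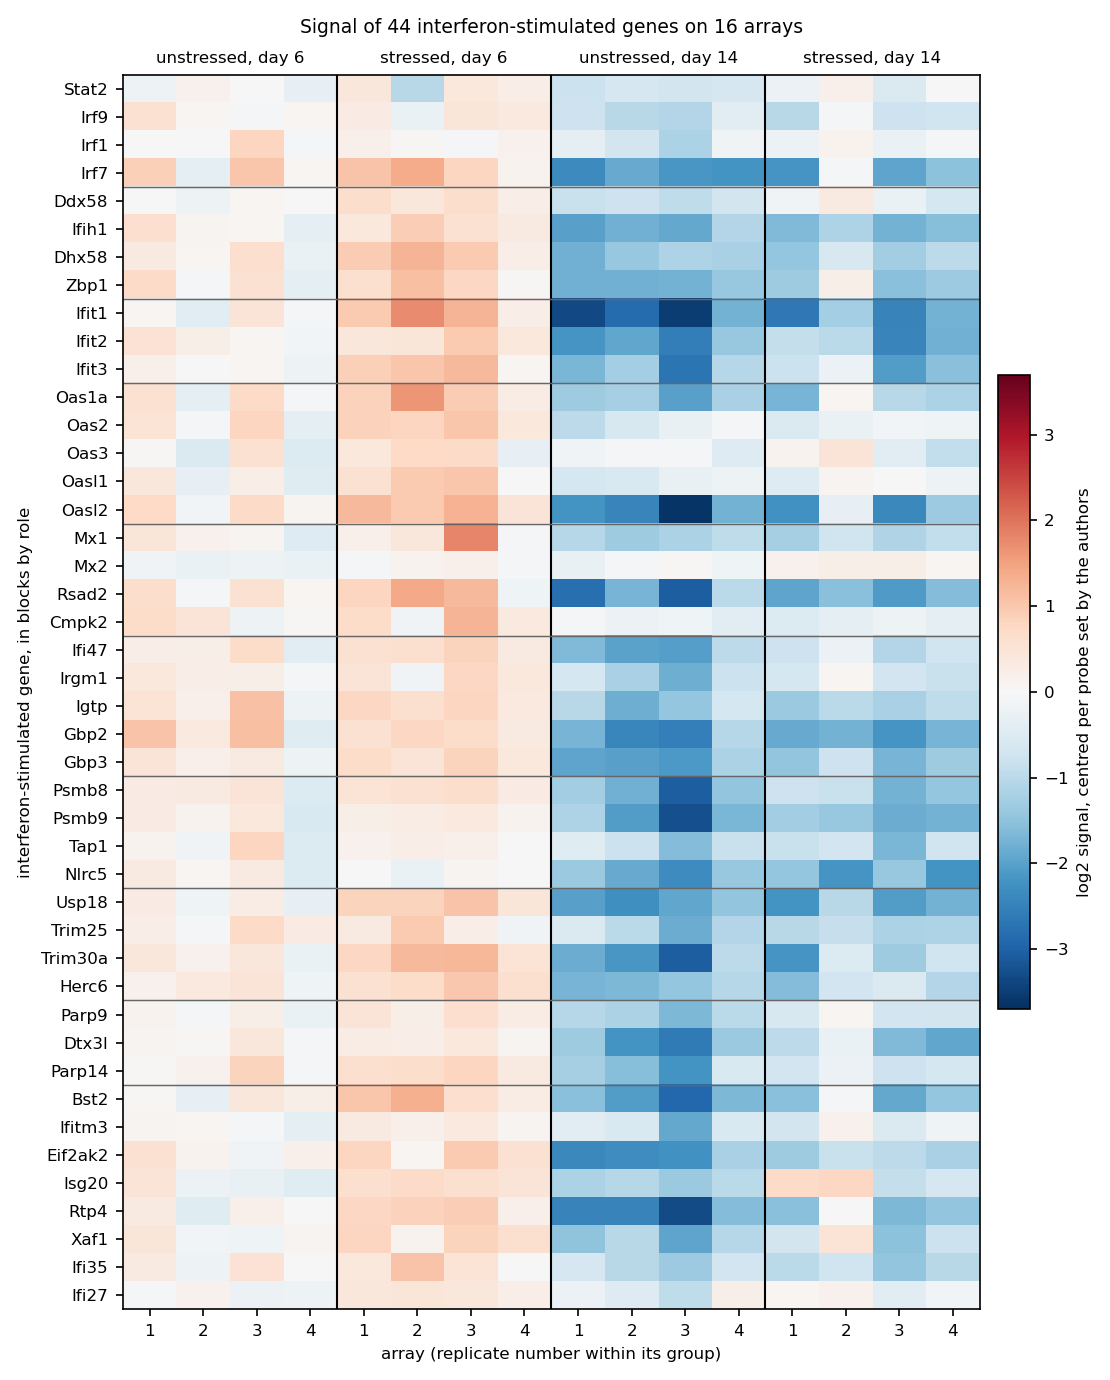
Log2 signal of each interferon-stimulated gene, centred per probe set by the authors, on the 16 arrays (columns, 4 replicates in each group), with the 44 genes in blocks by role. The day 14 columns are blue for nearly all genes, the stressed day 14 replicate 2 is paler than its neighbours, and the blocks hold a few genes such as Oas3, Mx2 and Ifi27 with little contrast.

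Interferon-stimulated genes were lower in the older wounds, whether or not the wound was loaded. In unstressed wounds 38 of the 44 genes fell from day 6 to day 14 and 0 rose, where 31.8% of all genes fell and 23.1% rose. In stressed wounds 37 fell and 0 rose, where 34.3% of all genes fell and 24% rose. The median log2 difference of the 44 genes was -1.65 in unstressed and -1.60 in stressed wounds, against -0.09 and -0.14 over all genes, and single genes ranged from -2.89 to 0.10 and from -3.09 to 0.11. The decline was at least 2-fold and past the threshold for 32 genes in unstressed wounds (13.1% of all genes) and for 31 in stressed wounds (13.6% of all genes). Every day 14 array lay below every day 6 array for 37 genes in unstressed wounds (27.9% of all genes) and for 32 in stressed wounds (29.1% of all genes).

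The 35 genes that fell in both kinds of wound were 92.1% of those that fell in unstressed and 94.6% in stressed wounds. These comparisons share no array, but both came from the same fit with a shared estimate of the spread. The overlap was not computed over all genes, of which 31.8% fell in unstressed and 34.3% in stressed wounds. Irf1, Ifitm3 and Isg20 passed the threshold in unstressed wounds alone, and Cmpk2 and Oasl1 in stressed wounds alone. Stat2, Oas3, Mx2 and Ifi27 passed it in neither. A test of the difference between the changes of unstressed and stressed wounds, which is the same contrast as the change of the loading effect between days, called 0 of the 44 genes, so none of the declines was shown to differ between the kinds of wound.

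**Figure D2:**
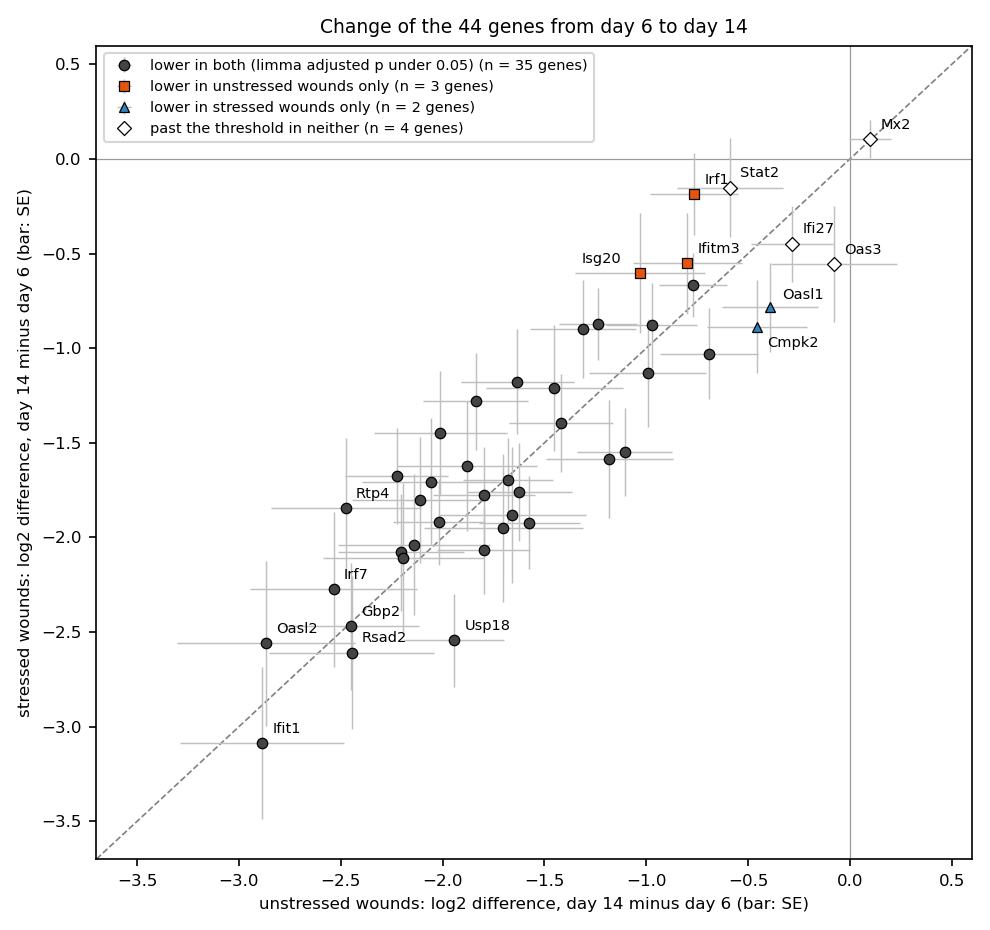
Log2 difference from day 6 to day 14 of each of the 44 genes in unstressed wounds (horizontal) against stressed wounds (vertical), with bars of 1 SE and the dashed line of equal change. The 35 genes that fell in both lie along the line, with Ifit1 farthest down at -2.89 and -3.09, and Mx2 lies just above 0 on both axes.

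Among the signal transducers and interferon regulatory factors, 3 of 4 fell in unstressed and 2 of 4 in stressed wounds. Irf7, the factor that amplifies interferon alpha production, changed most. It read 0.88, -0.37, 1.02 and 0.08 on the unstressed and 1.05, 1.38, 0.80 and 0.14 on the stressed arrays of day 6, and -2.34, -1.85, -2.14 and -2.20 on the unstressed and -2.18, -0.08, -1.96 and -1.50 on the stressed arrays of day 14. The days did not overlap in either kind of wound, although replicate 2 of the stressed day 14 group lay above the lowest unstressed array of day 6. The difference was -2.53 (SE 0.41, adjusted p = 0.00018) in unstressed and -2.27 (SE 0.41, adjusted p = 0.00038) in stressed wounds. Irf9, the DNA-binding partner of Stat2, fell, with differences of -0.97 and -0.88. Irf1, which interferon gamma induces directly, fell by 0.77 (SE 0.22, adjusted p = 0.0085) in unstressed wounds, and its difference in stressed wounds was -0.19 (SE 0.22, adjusted p = 0.48). Stat2 differed by -0.59 (adjusted p = 0.069) and -0.15 (adjusted p = 0.63).

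All 4 nucleic acid sensors fell in both kinds of wound. Ifih1 encodes MDA5, a sensor of long double-stranded RNA. Its signals were 0.62, 0.09, 0.06 and -0.36 (unstressed) and 0.38, 0.92, 0.57 and 0.33 (stressed) at day 6, and -2.0, -1.79, -1.90 and -1.09 (unstressed) and -1.65, -1.14, -1.74 and -1.56 (stressed) at day 14. All day 14 arrays were lower than all day 6 arrays, and the differences were -1.80 (SE 0.23, adjusted p = 3.3e-05) and -2.07 (SE 0.23, adjusted p = 1.3e-05). Dhx58, the RIG-I-like regulator LGP2, fell, with -1.57 and -1.92 (SE 0.25, adjusted p = 3.6e-05 in stressed wounds), as did Zbp1, a sensor of Z-form nucleic acids, with -1.88 and -1.62. Ddx58, which encodes RIG-I, had the smallest change of the sensors, at -0.77 and -0.67. Further probe sets disagreed for Dhx58 and Ddx58. Of the further Dhx58 probe sets, 1 of 2 rose in unstressed wounds (0.93, adjusted p = 0.0012 among all probe sets). Of the further Ddx58 probe sets, 1 of 2 rose in stressed wounds (0.56, adjusted p = 0.004).

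The 3 IFIT genes, whose proteins bind foreign RNA, included the gene with the largest decline of the module. Ifit1 read 0.07, -0.38, 0.48 and -0.07 on the unstressed and 0.96, 1.76, 1.27 and 0.23 on the stressed arrays of day 6, and -3.33, -2.84, -3.52 and -1.75 on the unstressed and -2.64, -1.26, -2.48 and -1.75 on the stressed arrays of day 14. The days did not overlap in either kind of wound, and the differences were -2.89 (SE 0.40, adjusted p = 6.1e-05) and -3.09 (SE 0.40, adjusted p = 3.9e-05), or 7.39-fold and 8.5-fold lower. The differences of Ifit2 were -2.20 (SE 0.31, adjusted p = 6.3e-05) and -2.08 (SE 0.31, adjusted p = 9.3e-05), and those of Ifit3, which fell as well, were -1.70 and -1.95.

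The OAS family, which makes the oligoadenylates that activate RNase L or consists of relatives without that activity, was less uniform. Of its 5 genes 3 fell in unstressed and 4 in stressed wounds. Oasl2 read 0.74, -0.09, 0.70 and 0.09 (unstressed) and 1.21, 0.97, 1.30 and 0.48 (stressed) at day 6, and -2.20, -2.45, -3.63 and -1.76 (unstressed) and -2.25, -0.29, -2.38 and -1.36 (stressed) at day 14. Its days did not overlap, with differences of -2.87 (SE 0.44, adjusted p = 0.00012) and -2.56 (SE 0.44, adjusted p = 0.00026). Oas1a fell with differences of -1.66 and -1.88, and Oas2 with -0.69 and -1.03. Oasl1, a repressor of Irf7 translation in mice, had a difference of -0.39 (SE 0.24, adjusted p = 0.17) in unstressed and fell by 0.78 (SE 0.24, adjusted p = 0.011) in stressed wounds. Oas3 had differences of -0.08 (SE 0.31, adjusted p = 0.85) and -0.55 (SE 0.31, adjusted p = 0.13).

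Of the block with the Mx genes and viperin, 2 of 4 genes fell in unstressed and 3 of 4 in stressed wounds. Rsad2 encodes viperin, an enzyme that makes an antiviral nucleotide analogue. It read 0.66, -0.06, 0.56 and 0.06 (unstressed) and 0.81, 1.39, 1.20 and -0.16 (stressed) at day 6, and -2.80, -1.72, -3.06 and -1.0 (unstressed) and -1.96, -1.54, -2.09 and -1.61 (stressed) at day 14. No day 14 array reached a day 6 array, and the differences were -2.45 (SE 0.40) and -2.61 (SE 0.40). Cmpk2, the nucleotide kinase gene next to Rsad2 in the genome, had a smaller difference of -0.46 (adjusted p = 0.12) in unstressed wounds and fell by 0.89 (adjusted p = 0.0065) in stressed wounds. Mx1, a dynamin-like GTPase whose alleles are defective in common laboratory strains, fell with differences of -1.18 and -1.59, whereas Mx2 had differences of 0.10 and 0.11 (SE 0.10, adjusted p = 0.43 and 0.38).

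All 5 interferon-inducible GTPases, which act on vacuoles of intracellular parasites and are strongly induced by interferon gamma, fell in both kinds of wound. Gbp2 read 1.05, 0.35, 1.11 and -0.44 (unstressed) and 0.55, 0.76, 0.69 and 0.34 (stressed) at day 6, and -1.73, -2.42, -2.54 and -1.04 (unstressed) and -1.87, -1.76, -2.19 and -1.72 (stressed) at day 14. The 2 days were separated in both kinds of wound, with differences of -2.45 (SE 0.34, adjusted p = 5.4e-05) and -2.47 (SE 0.34, adjusted p = 5.3e-05). The Gbp2 probe set is of a design that the manufacturer marks as open to cross-hybridisation, so related guanylate-binding proteins may share its signal. A further Gbp2 probe set without that mark fell as well, with differences of -2.25 and -1.58 (adjusted p = 0.00041 and 0.0042 among all probe sets). The differences of Gbp3 were -2.02 (SE 0.23, adjusted p = 1.3e-05) and -1.92 (SE 0.23, adjusted p = 2.1e-05). The immunity-related GTPases had smaller differences. They were -1.84 (SE 0.26, adjusted p = 6.3e-05) and -1.28 for Ifi47, -1.62 and -1.76 (SE 0.26, adjusted p = 8.6e-05 in stressed wounds) for Igtp, and -1.31 and -0.90 for Irgm1.

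All 4 antigen-processing genes fell as well. Psmb9, a catalytic subunit of the immunoproteasome, read 0.30, 0.13, 0.39 and -0.57 (unstressed) and 0.20, 0.27, 0.37 and 0.13 (stressed) at day 6, and -1.15, -2.07, -3.26 and -1.70 (unstressed) and -1.28, -1.40, -1.82 and -1.74 (stressed) at day 14. Its day 6 arrays were all higher than its day 14 arrays, and the differences were -2.11 and -1.80 (SE 0.33 in both). The partner subunit Psmb8 had differences of -2.06 and -1.71. Nlrc5, the transactivator of class I genes, had differences of -1.80 (SE 0.25, adjusted p = 6.1e-05) and -1.77 (SE 0.25, adjusted p = 6.6e-05). Tap1, a chain of the peptide transporter, had differences of -0.99 and -1.13, but 2 of its 3 further probe sets rose in unstressed wounds (0.57 and 0.38) and 1 in stressed wounds (0.61).

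The ubiquitin, ISG15 and TRIM genes also fell without exception. Usp18 removes ISG15 from proteins and restrains signalling at the type I receptor. Its signals were 0.31, -0.15, 0.27 and -0.32 (unstressed) and 0.83, 0.83, 1.04 and 0.44 (stressed) at day 6, and -2.01, -2.28, -1.92 and -1.46 (unstressed) and -2.21, -1.01, -2.06 and -1.75 (stressed) at day 14. The days lay far apart and the groups of each kind of wound did not overlap between days, with differences of -1.94 (SE 0.25, adjusted p = 3.2e-05) and -2.54 (SE 0.25, adjusted p = 4.9e-06). Herc6, the main ISG15 ligase of mice, had differences of -1.68 (SE 0.22, adjusted p = 4e-05) and -1.70 (SE 0.22, adjusted p = 3.9e-05). However, 1 of its 3 further probe sets rose in both kinds of wound (0.73 and 1.07). Another rose in stressed wounds alone (0.37, adjusted p = 0.045 among all probe sets). The differences were -2.19 and -2.11 for Trim30a, and -1.42 and -1.40 for Trim25, a ubiquitin ligase that activates RIG-I.

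The ADP-ribosyltransferase genes Parp9 and Parp14 and Dtx3l, whose product forms a ubiquitin ligase complex with PARP9, fell in both kinds of wound. Dtx3l read 0.10, 0.03, 0.41 and -0.03 (unstressed) and 0.28, 0.25, 0.39 and 0.09 (stressed) at day 6, and -1.31, -2.21, -2.63 and -1.39 (unstressed) and -0.97, -0.25, -1.64 and -1.92 (stressed) at day 14. The day 6 arrays were close to each other and the day 14 arrays were lower and more spread, with differences of -2.01 and -1.45 (SE 0.33 in both). The differences were -1.63 and -1.18 for Parp14, and -1.24 and -0.87 for Parp9.

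Of the 8 membrane and other effectors, 7 fell in unstressed and 5 in stressed wounds. Bst2, or tetherin, holds budding virus at the cell surface. It read 0.05, -0.31, 0.43 and 0.21 (unstressed) and 1.02, 1.32, 0.62 and 0.26 (stressed) at day 6, and -1.53, -2.08, -2.91 and -1.67 (unstressed) and -1.56, -0.05, -1.89 and -1.43 (stressed) at day 14. The days did not overlap within either kind of wound, although stressed replicate 2 of day 14 lay above unstressed replicate 2 of day 6, and the differences were -2.14 and -2.04 (SE 0.37 in both). Rtp4, a receptor transporter protein, had differences of -2.48 (SE 0.37, adjusted p = 9.6e-05) and -1.84. Those of Eif2ak2, the double-stranded RNA-dependent kinase PKR, were -2.23 (SE 0.25, adjusted p = 1.4e-05) and -1.67 (SE 0.25, adjusted p = 0.00011). Further Eif2ak2 probe sets differed by -0.63 and -0.31 in unstressed and by -0.46 and -0.02 in stressed wounds, none past the threshold. Xaf1 fell with differences of -1.45 and -1.21, and Ifi35 with -1.10 and -1.55 (SE 0.23, adjusted p = 1e-04 in stressed wounds). The exonuclease gene Isg20 fell by 1.03 in unstressed wounds and differed by -0.60 (adjusted p = 0.11) in stressed wounds. Ifitm3, which blocks entry of enveloped viruses, fell by 0.80 in unstressed wounds and differed by -0.55 (adjusted p = 0.088) in stressed wounds. Ifi27 differed by -0.28 (adjusted p = 0.24) and -0.45 (adjusted p = 0.067).

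Macrophage and monocyte markers moved in the same direction between the days. Keratinocyte, fibroblast and endothelial markers also had lower means at day 14 in unstressed wounds, while the other lists given here were mixed. Of the 9 macrophage and monocyte markers measured, 8 fell in unstressed and 7 in stressed wounds, with medians of -2.14 and -1.04. Their mean signal was -0.38 to 0.67 on the unstressed and 0.16 to 0.82 on the stressed arrays of day 6, and -2.62 to -1.61 on the unstressed and -1.21 to 0.03 on the stressed arrays of day 14. Of the 10 T and natural killer cell markers, 6 fell and 2 rose in unstressed wounds, and 4 fell and 2 rose in stressed wounds. Of the 6 plasmacytoid dendritic cell markers, which include the member Bst2, 3 fell and 1 rose in both kinds of wound. Of the 6 neutrophil markers 2 fell and 1 rose in unstressed wounds (median -0.70), and 2 rose and 0 fell in stressed wounds (median 0.91). Of the 6 dendritic and Langerhans cell markers 1 fell and 2 rose in unstressed wounds, and 2 fell and 2 rose in stressed wounds. Of the 6 keratinocyte markers 4 fell in unstressed wounds (median -1.29) and 1 fell in stressed wounds (median -0.37), and 0 rose in either. Of the 5 fibroblast markers 1 fell in unstressed (median -0.28) and 2 in stressed wounds (median -0.35). Of the 5 endothelial markers 0 fell in unstressed (median -0.71) and 1 in stressed wounds (median 0.12). The part of these markers in the decline of the interferon-stimulated genes was not tested. The declines were present with either class of day 14 arrays, set against all day 6 arrays of the same kind of wound. The median difference of the 44 genes was -1.66 with replicates 1 and 2 of day 14 and -1.61 with replicates 3 and 4 in unstressed wounds, and -1.30 and -1.72 in stressed wounds. No day 6 array had a high Xist signal, so the differences with replicates 3 and 4 cross the classes and cannot separate day from class.

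Promoter sequences are shown because so many of these genes fell together. The RefSeq table of the mouse build GRCm38.p6 held a promoter for 33 of the 44 genes, and the 250 bases before the start were searched. The ISRE core was taken as GAAANNGAAA on either strand, with overlapping matches counted separately, and stood in the promoters of 12 of the 33 genes (36.4%) and of 936 of all 27025 genes (3.46%). The GAS core was taken as TTCNNNGAA, which reads the same on both strands, and stood in 8 of the 33 (24.2%) and in 2197 of all genes (8.13%). The ISRE core occurred in Stat2, Ifit1, Ifit3, Oas1a, Oas3, Rsad2, Irgm1, Igtp, Gbp2, Gbp3, Trim30a and Bst2. The genes were chosen as interferon-induced, so a higher share of cores than among all genes comes with that choice and says nothing about these wounds. These matches are letters in a window and not measured binding sites. The following stretches, with the ISRE core in capitals and written 5′ to 3′ along the gene, come from genes that fell strongly (Ifit1, Gbp2, Bst2) and from genes with a core that passed the threshold in neither kind of wound (Oas3, Stat2):
Ifit1: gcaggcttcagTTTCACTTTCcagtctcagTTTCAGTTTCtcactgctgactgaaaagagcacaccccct
Gbp2: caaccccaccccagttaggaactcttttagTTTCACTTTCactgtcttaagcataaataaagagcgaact
Bst2: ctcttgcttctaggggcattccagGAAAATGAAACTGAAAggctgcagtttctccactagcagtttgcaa
Oas3: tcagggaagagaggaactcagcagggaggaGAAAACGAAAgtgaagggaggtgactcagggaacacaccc
Stat2: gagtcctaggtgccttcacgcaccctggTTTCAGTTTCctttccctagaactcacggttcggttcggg

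The Ifit1 stretch lies at chr19:34640774-34640843 on the plus strand and holds 2 cores, the nearer of which begins 85 bases before the start. The Gbp2 stretch lies at chr3:142620574-142620643 on the plus strand with its core 59 bases before the start, and the Bst2 stretch at chr8:71537557-71537626 on the minus strand with 2 overlapping cores, the nearer at 124 bases. The Oas3 core lies 75 bases before the start in chr5:120777695-120777764 on the minus strand. The Stat2 core is the most distant of the 5, at 222 bases, in chr10:128270248-128270315 on the plus strand. The 12 genes with the core had a median difference of -1.86 in unstressed and -1.93 in stressed wounds, the 21 genes without it -1.45 and -1.40, and the 11 genes with no promoter in the table -1.57 and -1.59. The ranges overlapped widely, since the genes with the core ran from -2.89 to -0.08 and those without it from -2.87 to -0.39 in unstressed wounds.

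The GAS core occurred in Irf1, Ifit2, Oas1a, Igtp, Psmb8, Bst2, Eif2ak2 and Isg20. It is shown in capitals for Irf1, the regulatory factor among them, and for Isg20 and Eif2ak2, which rose with loading at day 14:
Irf1: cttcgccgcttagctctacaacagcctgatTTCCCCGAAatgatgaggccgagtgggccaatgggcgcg
Isg20: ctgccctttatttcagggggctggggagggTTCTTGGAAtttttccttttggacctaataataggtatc
Eif2ak2: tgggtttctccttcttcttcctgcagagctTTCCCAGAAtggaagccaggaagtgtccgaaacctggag

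These stretches lie at chr11:53769894-53769962 (plus strand, core 90 bases before the start), chr7:78913321-78913389 (plus strand, 73 bases) and chr17:78882712-78882780 (minus strand, 178 bases). None of the 3 held an ISRE core in the searched window. Ddx58 and Ifi47, which also rose with loading at day 14, held no GAS core, and Parp9 and Rtp4 had no promoter in the table. Bst2, Igtp and Oas1a held both cores.

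The genes that make and transmit the interferon signal did not follow the stimulated genes as one group. Of 44 such genes listed outside the module, 36 were measured. In unstressed wounds 18 of them fell and 6 rose from day 6 to day 14, where 31.8% of all genes fell and 23.1% rose. In stressed wounds 16 fell and 8 rose, where 34.3% of all genes fell and 24% rose. Of the 7 interferon genes measured, 5 rose in unstressed and 6 in stressed wounds, and none fell. The centred values cannot show whether the signals of these interferon genes stood above background, so their rises may not reflect transcripts. Ifna1 rose by 0.60 (SE 0.17, adjusted p = 0.009) and 0.94 (SE 0.17, adjusted p = 0.00044), and Ifnb1 by 0.44 and 0.43 (SE 0.17, adjusted p = 0.039 in both). Ifng, the type II interferon, had differences of -0.29 (adjusted p = 0.16) and -0.03 (adjusted p = 0.88). Among the receptor chains, Ifnar2 fell with differences of -1.63 and -1.18, and Il10rb, a chain of the type III interferon receptor, with -1.47 and -0.93. Irf8, a factor of macrophages and dendritic cells, fell with -2.37 and -1.65, and Uba7, the enzyme that activates ISG15 for conjugation, with -2.07 and -1.62.

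Loading for 48 hours came with slightly higher signals of nearly all interferon-stimulated genes at day 6, none of which passed the test. The stressed mean was above the unstressed mean for 42 of the 44 genes, where 51.2% of all genes were higher, and the median difference was 0.41 against 0.01 over all genes. At the adjusted threshold 0 genes rose (0.033% of all genes) and 0 fell (0.022%). At an unadjusted p under 0.05, 10 of the 44 were higher (3.26% of all genes) and 0 were lower (2.91%). The 4 stressed arrays lay above the 4 unstressed arrays for 7 genes (3.35% of all genes), namely Ddx58, Usp18, Mx2, Herc6, Ifi27, Trim30a and Ifitm3.

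The smallest p-values at day 6 belonged to sensors and regulators. Ddx58 read 0.02, -0.20, 0.07 and -0.02 on the unstressed and 0.64, 0.42, 0.65 and 0.25 on the stressed arrays, with a difference of 0.52 (SE 0.17, adjusted p = 0.46). Usp18, with the values given above, differed by 0.76 (SE 0.25, adjusted p = 0.47). Both genes were higher on all stressed arrays than on any unstressed array, and neither passed the adjusted threshold over all 18193 genes. Oasl1 differed by 0.67 (SE 0.24, adjusted p = 0.55) and Dhx58 by 0.66 (SE 0.25, adjusted p = 0.6). The largest difference was that of Ifit1 at 1.03 (SE 0.40, adjusted p = 0.65), whose 95% interval ran from 0.17 to 1.89. Irf1 and Nlrc5 were the 2 genes with a lower stressed mean, each at -0.09. With weights for array quality, Ddx58 (0.56, adjusted p = 0.027) and Usp18 (0.85, adjusted p = 0.034) passed the threshold, in a fit that called 1.3% of all genes higher.

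By role, the median loading difference at day 6 was 0.77 for the IFIT genes, 0.63 for the OAS family, 0.62 for the ubiquitin, ISG15 and TRIM genes and 0.48 for the sensors and for the membrane and other effectors. It was 0.39 for the Mx and viperin block, 0.35 for the PARP genes with Dtx3l, 0.23 for the GTPases, 0.12 for antigen processing and 0.08 for the transducers. Of the macrophage and monocyte markers, 9 of 9 were higher at day 6 and 0 passed the threshold (median 0.37). Fibroblast markers were higher for 5 of 5 (median 0.69), keratinocyte markers lower for 6 of 6 (median -0.22) and neutrophil markers lower for 5 of 6 (median -0.22), with 0 past the threshold. Endothelial markers were also higher for 5 of 5 (median 0.19) and dendritic and Langerhans cell markers for 6 of 6 (median 0.18), with none past the threshold. The part of these markers in the differences was not tested.

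**Figure D3:**
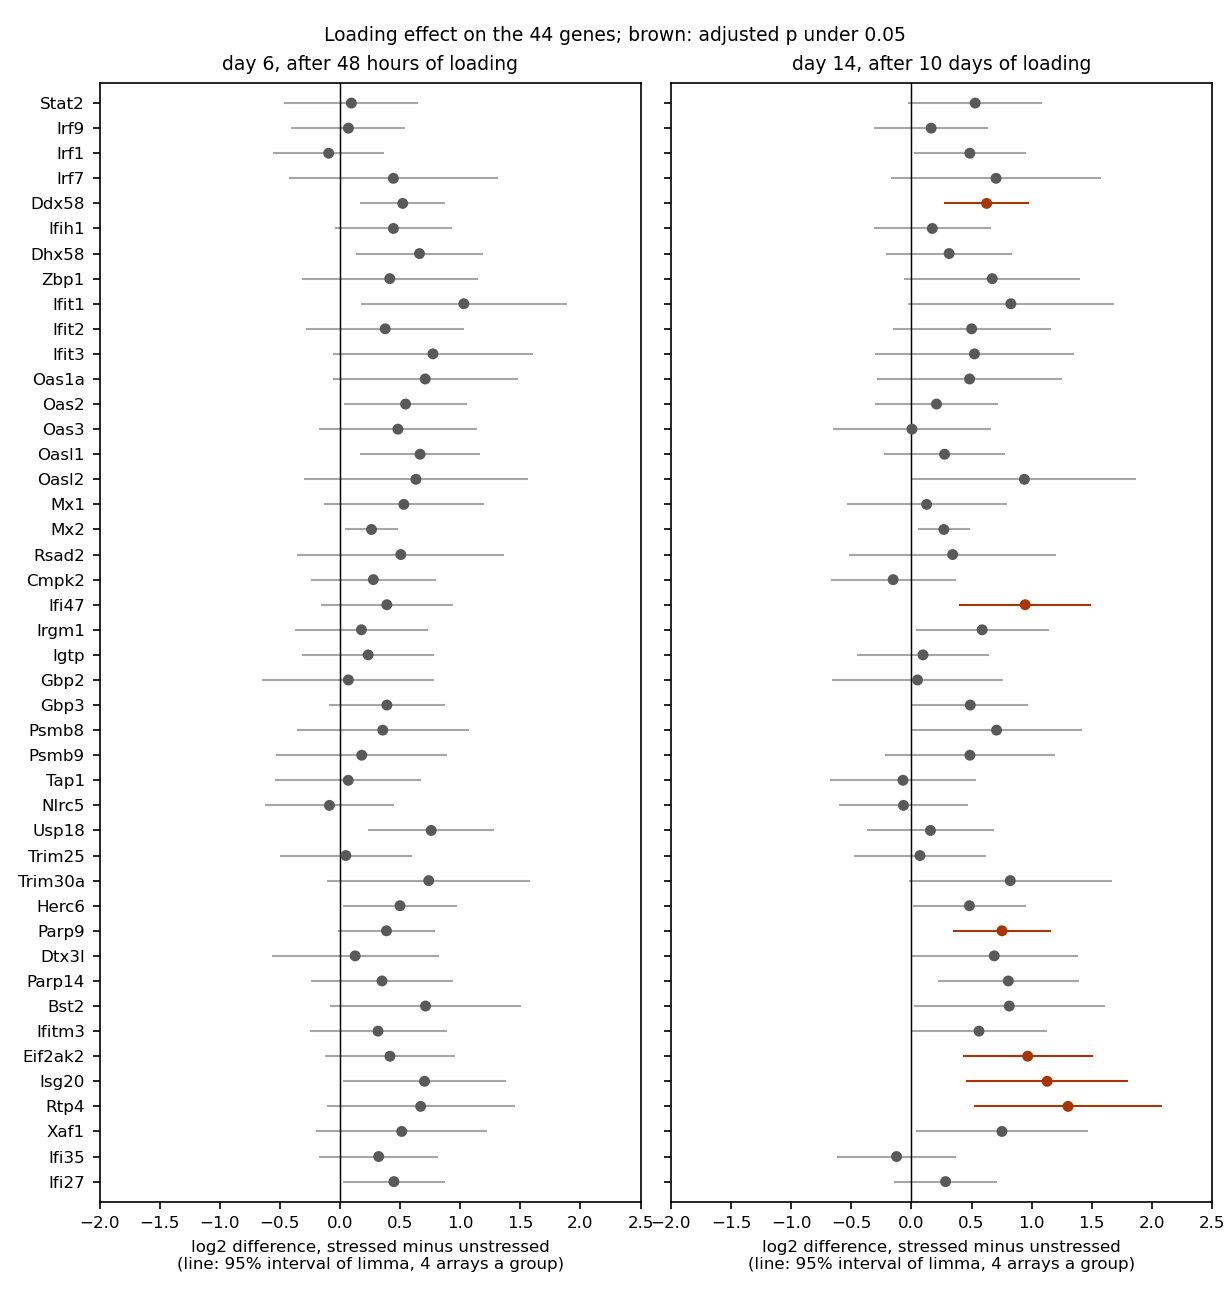
Log2 difference between stressed and unstressed wounds for each of the 44 genes at day 6 (left) and day 14 (right), with 95% intervals from limma and 4 arrays a group. Nearly all points lie right of 0 at both days, and the 6 genes past the threshold at day 14 (brown) are Ddx58, Ifi47, Parp9, Eif2ak2, Isg20 and Rtp4.

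After 10 days of loading, 6 interferon-stimulated genes were higher in stressed than in unstressed wounds of day 14 and 0 were lower. They were Parp9, Eif2ak2, Ddx58, Ifi47, Isg20 and Rtp4, with differences of 0.63 to 1.30. Among all genes 3.88% rose and 4.27% fell. The stressed mean was above the unstressed mean for 40 of the 44 genes (51.2% of all genes), and the median difference was 0.49 against 0.01 over all genes, with single genes from -0.15 to 1.30. At an unadjusted p under 0.05, 15 genes were higher (11.1% of all genes), and 2 of the 6 called genes, Isg20 and Rtp4, were at least 2-fold higher (2.15% of all genes). The groups did not overlap for 5 genes (5.86% of all genes): Parp9, Ddx58 and Isg20, and Mx2 and Stat2, which did not pass the test.

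Parp9, an ADP-ribosyltransferase-like partner of Dtx3l, read -1.04, -1.18, -1.66 and -1.01 on the unstressed and -0.59, 0.08, -0.71 and -0.67 on the stressed arrays of day 14. All stressed arrays were higher, replicate 2 by far, and the difference was 0.75 (SE 0.19, adjusted p = 0.025). At day 6 the gene had read 0.14, -0.08, 0.23 and -0.23 in unstressed and 0.48, 0.23, 0.61 and 0.28 in stressed wounds. Ddx58 read -0.83, -0.76, -0.95 and -0.67 on the unstressed and -0.14, 0.32, -0.24 and -0.64 on the stressed arrays of day 14. Its groups were separated, but stressed replicate 4 lay next to the unstressed arrays. The difference was 0.63 (SE 0.17, adjusted p = 0.033), and the adjusted p was 0.054 in a fit with a replicate block. Further Ddx58 probe sets differed by 0.32 and 0.31 (adjusted p = 0.31 and 0.17 among all probe sets).

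Isg20 encodes an RNA exonuclease. It read -1.18, -1.05, -1.36 and -0.99 on the unstressed and 0.71, 0.76, -0.90 and -0.63 on the stressed arrays of day 14. Stressed replicates 1 and 2 were as high as the stressed arrays of day 6 (0.60, 0.70, 0.59 and 0.47), while replicates 3 and 4 were close to the unstressed arrays. The unstressed arrays of day 6 had read 0.47, -0.20, -0.28 and -0.45. The difference at day 14 was 1.13 (SE 0.32, adjusted p = 0.04).

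The other 3 genes overlapped between the groups through unstressed replicate 4. Eif2ak2 read -2.39, -2.31, -2.25 and -1.21 on the unstressed and -1.32, -0.82, -0.97 and -1.20 on the stressed arrays of day 14, after 0.55, 0.12, -0.14 and 0.20 (unstressed) and 0.81, 0.07, 0.96 and 0.56 (stressed) at day 6. Its difference at day 14 was 0.97 (SE 0.25, adjusted p = 0.03), and its further probe sets differed by 0.33 and 0.48 (adjusted p = 0.52 and 0.24 among all probe sets). Ifi47, an immunity-related GTPase, read -1.63, -1.98, -2.02 and -0.95 on the unstressed and -0.77, -0.20, -1.09 and -0.74 on the stressed arrays of day 14. Unstressed replicate 4 exceeded stressed replicate 3, and the difference was 0.95 (SE 0.26, adjusted p = 0.035). At day 6 Ifi47 had read 0.26, 0.20, 0.68 and -0.39 in unstressed and 0.58, 0.58, 0.82 and 0.33 in stressed wounds. Rtp4 read -2.47, -2.47, -3.31 and -1.61 on the unstressed and -1.54, 0.01, -1.66 and -1.45 on the stressed arrays of day 14. Stressed replicate 2 alone was near the day 6 arrays, which had read 0.32, -0.44, 0.18 and -0.01 (unstressed) and 0.77, 0.86, 0.91 and 0.19 (stressed). The Rtp4 difference was 1.30 (SE 0.37, adjusted p = 0.041), and its further probe set differed by 0.17 (adjusted p = 0.7 among all probe sets).

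**Figure D4:**
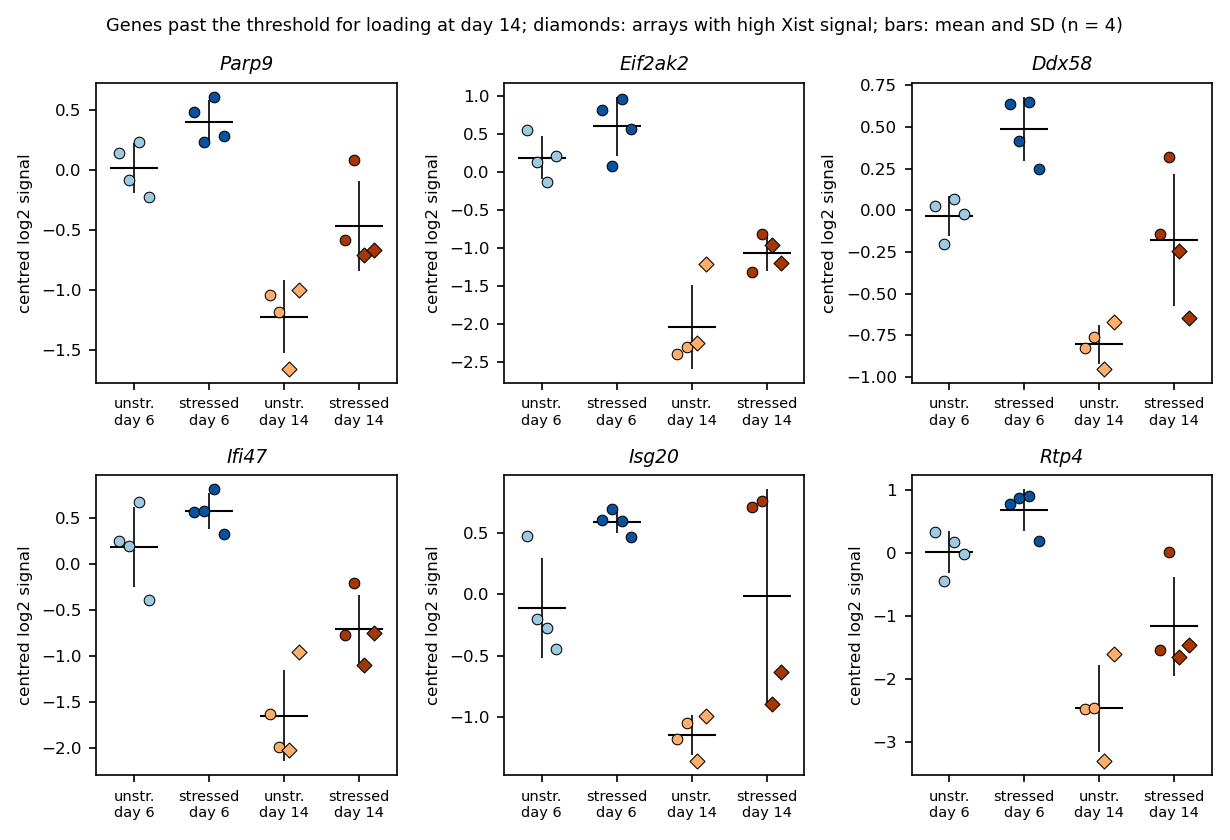
Centred log2 signal of the 6 genes past the threshold for loading at day 14, with each array as a point, a bar for the mean and a line for the SD of 4 arrays, and diamonds for the arrays with high Xist signal. All 6 genes fall from day 6 to day 14 in unstressed wounds, and the stressed arrays of Isg20 at day 14 split into a pair at 0.71 and 0.76 and a pair at -0.90 and -0.63.

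The day 14 loading differences were also computed within the arrays of low and of high Xist signal, which hold 2 arrays of each group, and the difference between these classes was not tested. Within replicates 1 and 2 the differences were 0.86 for Parp9, 1.28 for Eif2ak2, 0.88 for Ddx58, 1.32 for Ifi47, 1.85 for Isg20 and 1.70 for Rtp4. Within replicates 3 and 4 they were 0.65, 0.65, 0.37, 0.57, 0.41 and 0.90 in the same order. Each of the 6 genes was thus higher in stressed wounds within both classes, but they had been called on these same arrays, so this is no separate check. The median of the 44 genes was 0.56 with 39 positive in replicates 1 and 2 and 0.27 with 36 positive in replicates 3 and 4. The difference was larger in replicates 1 and 2 for 35 of the 44 genes, and stressed replicate 2, the highest of its group for 34 genes, is among them. It was smaller there for the other 9 genes, such as Ifitm3 (0.24 against 0.89) and Psmb9 (0.27 against 0.70). In a fit of the 12 arrays with low Xist signal, 11 of the 44 genes rose, where 8.05% of all genes rose: the 6 above and Ifit2, Gbp3, Dtx3l, Parp14 and Xaf1.

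The 6 calls depended on which arrays were in the fit. Without unstressed day 14 replicate 3 (2.74% of all genes higher) or without stressed day 14 replicate 2 (1.82%), 0 of the 44 genes passed. Without unstressed day 14 replicate 1 or 2 only Parp9 passed, and without stressed day 14 replicate 1 Parp9 and Eif2ak2 did. Lost calls did not always go with smaller differences, since Rtp4 still differed by 1.30 without unstressed replicate 1 (adjusted p = 0.079). With only the 8 arrays of day 14 in the fit the 6 differences were the same, but the adjusted p rose to between 0.12 and 0.17 and 0 passed (0.429% of all genes higher). With quantile normalization between the arrays 0 passed as well (0.726% of all genes higher). All 6 differences stayed positive under every alternative, from 0.42 for Ddx58 to 1.85 for Isg20. The genes had been called for higher values on these same arrays, which every alternative reuses, so the constant sign adds no support.

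Macrophage and monocyte markers rose with loading at day 14 as well. Of the 9 measured, 7 rose, with a median of 1.45, and their mean signal was -2.62 to -1.61 on the unstressed and -1.21 to 0.03 on the stressed arrays. Among fibroblast markers 2 of 5 rose (median 0.90), while the skeletal muscle and adipocyte markers had medians of -3.25 and -3.02, with 3 of 5 and 3 of 3 lower. The other lists had positive medians too. Of the neutrophil markers 2 of 6 rose (median 0.77), of the plasmacytoid dendritic cell markers 1 of 6 (median 0.50) and of the dendritic and Langerhans cell markers 1 of 6 (median 0.13). Endothelial, T and natural killer cell and keratinocyte markers had medians of 1.05, 0.18 and 0.29, with none past the threshold. The part of these cell type markers in the loading differences of the interferon-stimulated genes was not tested. Of the 36 pathway genes outside the module, 3 rose and 1 fell with loading at day 14: Tapbp, which helps load class I molecules, by 1.20 (adjusted p = 0.026), Il10rb by 0.74 (adjusted p = 0.04), the RNA sensor Tlr7 by 0.71 (adjusted p = 0.048), and Mavs, the adaptor of the RIG-I-like sensors, at -0.91 (adjusted p = 0.0056). Among all genes 3.88% rose and 4.27% fell with loading at day 14. None of the 7 interferon genes passed the threshold for loading at either day.

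The loading effect of the interferon-stimulated genes was not shown to differ between the days in the fit of all arrays. In the test of that difference 0 genes were called in either direction (0.022% of all genes higher and 0.0165% lower), and 0 of the 44 had an unadjusted p under 0.05 (4.62% of all genes higher and 5.46% lower). The smallest p belonged to Irf1, whose loading effect was 0.58 higher at day 14 than at day 6 (SE 0.31, adjusted p = 0.56, 95% interval -0.07 to 1.24). Usp18 went the other way with -0.60 (SE 0.35, adjusted p = 0.61, 95% interval -1.34 to 0.14). Eif2ak2 and Ifi47 had differences of 0.55 and 0.56 (adjusted p = 0.65 in both). The median over the 44 genes was 0.09, and it was -0.29 after quantile normalization. In the fit of the arrays with low Xist signal 1 gene, Isg20, passed (1.15, adjusted p = 0.038), where 2.86% of all genes passed with a higher effect at day 14.

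The loading differences by role at day 14 were highest for the membrane and other effectors, with a median of 0.78 and 3 of 8 past the threshold, and for the PARP genes with Dtx3l, with 0.75 and 1 of 3. The medians were 0.52 for the IFIT genes, 0.51 for the transducers, 0.49 for the GTPases (1 of 5 past the threshold) and 0.47 for the sensors (1 of 4). They were 0.32 for the ubiquitin, ISG15 and TRIM genes, 0.28 for the OAS family, 0.21 for antigen processing and 0.20 for the Mx and viperin block, with none past the threshold. Cmpk2, Ifi35, Nlrc5 and Tap1 were the 4 genes with a lower stressed mean, from -0.15 to -0.07. The further Ifi35 probe sets were higher in stressed wounds, by 0.34 and 0.75 (adjusted p = 0.37 and 0.06 among all probe sets). Those of Tap1 differed by 0.08, -0.02 and 0.23, and that of Cmpk2 by -0.01.

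Probe sets of the same gene did not always move together. Of the 44 genes 25 had a single probe set, and 19 had 29 further probe sets beside the most variable one, which stood for the gene. Further probe sets had the opposite sign of that probe set in 9 cases for the change in unstressed wounds, 10 for the change in stressed wounds, 4 for loading at day 6 and 6 for loading at day 14. Of the 73 probe sets, 49 fell and 4 rose in unstressed wounds, where 23.4% and 16.8% of all 34945 probe sets did. In stressed wounds 47 fell and 4 rose (26.6% and 18.7% of all probe sets). With loading at day 14, 6 rose and 0 fell (3.31% and 4.04% of all probe sets).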

How the data were processed

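Per the series design text, the authors hybridized RNA of 4 mice per group to Affymetrix arrays with pairs of matched and mismatched oligonucleotides and processed the intensity files in GeneSpring GX 11.0. How background correction, summarization and normalization were done is not given in the sources used here. Values were taken to be log2, because a probe set spanned up to 10.08, more than log10 of a 16-bit signal can span (4.82). If they were natural logs, the log2 differences would exceed those given. The authors centred the deposited log2 values per probe set on a reference that is unknown, because 6.27% of probe sets have a median within 0.001 of 0. It cancels in differences. Direction is that of the deposited values.

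Of 45101 probe sets, 932 had several symbols and 9211 had none in the platform annotation, and 64 were controls. Among a gene's single-symbol probe sets, the one of largest interquartile range on the 16 arrays stood for the gene, a rule that favours variable probe sets. The 4 group means of 18193 genes were fitted by limma 3.58.1 (lmFit, eBayes; R 4.3.3), two-sided, with Benjamini-Hochberg adjustment over all genes. The fit was checked on simulated data. Promoters, tables and plots used Python 3.11.15, pandas 2.3.3, numpy 2.4.6 and matplotlib 3.10.9. Precision is limited by the number of arrays. The smallest SD of the difference between arrays of a group was 0.255, so no array was a copy of another.

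The 44 genes and all lists were chosen with earlier results of these data known. All 44 may be named. Per comparison, every gene past the threshold was given if there were at most 12, otherwise the 12 with the smallest p, and the 4 with the smallest p where fewer than 4 passed. Same-numbered arrays of day 14 deviated together (r = 0.30, 0.18, 0.27 and 0.19), which meets the rule for pairing, but so did differently numbered arrays of one Xist class (0.079 to 0.25), and r was negative across the classes (-0.29 to -0.066). Same-numbered arrays of day 6 did not deviate together (-0.13, -0.41, -0.18 and 0.0049). Alternatives were quantile normalization, array weights, the replicate block, Xist class as a term or as a filter, the mean of a gene's probe sets, all probe sets, a filter on low interquartile range, a robust variance prior, 2 groups alone, and leaving out each array. Of the listed pathway genes, 8 are not analysed here.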

Additional observations from a re-analysis of the deposited data

Results flagged for a closer look

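A sample was singled out where its gap to the nearest array of its group of 4, divided by the range of the group, exceeded Dixon's critical value for groups of 4. Of 68 groups tested, 3 met this, and chance alone gives about 1 in 20. The stressed day 14 replicate 2 of Parp9 stood at 0.0826, above the others at -0.71 to -0.59 (gap over range 0.85). The same array stood apart for Rtp4, at 0.00998 against -1.66 to -1.45 (0.879). The unstressed day 14 replicate 4 of Eif2ak2 stood at -1.21, above the others at -2.39 to -2.25 (0.88). The genes tested were those given array by array in the text, which by choice include all 6 that rose with loading at day 14. All 3 flagged genes are among these 6.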

How the results depend on the processing

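The declines between the days kept their direction under all alternatives: 33 to 39 of the 44 genes fell in unstressed and 34 to 40 in stressed wounds, and the 12 named genes of each comparison stayed past the threshold. The median change moved by more than the spread between arrays in 3 cases, to -1.20 in unstressed wounds with quantile normalization, and to -1.24 (unstressed) and -1.02 (stressed) with the mean of a gene's probe sets. Loading at day 14 was sensitive: the count of 6, in a fit that called 3.88% of all genes higher, became 0 with quantile normalization (0.726% of all genes) and with only the arrays of the 2 groups (0.429%), 11 with only the low-Xist arrays (8.05%), and 0 to 7 when arrays were left out in turn. With the replicate block it was 5, Ddx58 having an adjusted p of 0.054, and the block changed the call of no other named gene. Rtp4 lost its call under 13 of 26 alternatives, Isg20 under 11, Ddx58 under 8, Eif2ak2 and Ifi47 under 7 and Parp9 under 4. Loading at day 6 called 2 genes with array weights (1.3% of all genes) and 0 otherwise. The difference between the days called 1 gene, Isg20 (1.15, adjusted p = 0.038), with only the low-Xist arrays (2.86% of all genes), and its median turned to -0.29 with quantile normalization. The causes were not tested. Correction from probe intensities and a slide or scan block were not run, since no such values were given. Centred values allow no statement on signal over background.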
